A study of Mus musculus with 18 samples.

Results

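The genes described here are 9 factors that receive or carry proteins destined for the proteasome or for membrane insertion: the ubiquilins Ubqln1, Ubqln2 and Ubqln4, the shuttle gene Rad23b, the shuttle-related protease gene Ddi2, the BAG6 complex genes Bag6, Ubl4a and Get4, and the co-chaperone gene Sgta. They were picked by their Entrez numbers out of 28096 genes in the count files, and all 9 passed the expression filter that left 14161 genes for testing. Splenic B cells of C57BL/6 N mice at least 8 weeks old were isolated with a commercial murine B-cell kit after red cell lysis and kept for 4 hr without stimulus (resting), with 10 μg/mL of anti-IgM F(ab)2, which engages the B-cell receptor, or with 20 μg/mL of LPS from E. coli K12, which engages Toll-like receptor 4. Cells were WT or Ubqln1-/-, the latter carrying in every tissue a germline deletion of exon 2 that was made with Cre in embryonic stem cells. Each of the 6 combinations of genotype and condition had 3 libraries of polyadenylated RNA, each from 3 pooled wells. The study describes its RNASeq replicates as independent experiments, the labels do not say whether they came from separate animals, and p-values measure the spread between these samples.

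Proteins marked with ubiquitin chains reach the proteasome either directly or through shuttle factors, which carry a ubiquitin-like (UBL) domain that docks on the proteasome and a ubiquitin-associated (UBA) domain that holds the chain. Ubiquilins and the RAD23 proteins have this layout, and ubiquilins also hold hydrophobic segments through their middle region. Membrane proteins and other hydrophobic clients in the cytosol are met by SGTA and by the complex of BAG6, UBL4A and GET4, which either passes tail-anchored proteins to the insertion machinery of the endoplasmic reticulum or has them ubiquitinated for degradation. DDI2 is an aspartic protease with a UBL domain that cleaves the transcription factor NRF1, the product of Nfe2l1. Ubqln1 is the only member deleted in the libraries described here.

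Exon 2 of Ubqln1 is shown because its loss defines the Ubqln1-/- mice, and exon 3 because it holds the reading frame that follows. The gene lies on the minus strand, at chr13:58176156-58215653 in RefSeq GRCm38.p6. In the GENCODE annotation of GRCm38 exon 2 lies at chr13:58198919-58199070 and exon 3 at chr13:58196557-58196672 of the transcript with 11 exons. The capitals in exon 3 mark the stop codon met in frame when exon 1 is joined to exon 3.
Ubqln1 exon 2: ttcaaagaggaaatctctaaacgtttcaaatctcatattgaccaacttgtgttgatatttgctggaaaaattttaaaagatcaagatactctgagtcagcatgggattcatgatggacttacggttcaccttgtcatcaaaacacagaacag
Ubqln1 exon 3: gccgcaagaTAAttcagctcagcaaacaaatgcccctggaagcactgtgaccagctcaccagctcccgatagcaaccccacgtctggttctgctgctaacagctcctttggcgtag
Exon 2 is 152 bases long, which leaves a remainder of 2 when divided by 3. Exon 1 holds 153 coding bases, or 51 codons, and the joined reading frame ends after 54 codons, where the full frame has 582. Exon 2 makes up 4.12% of the 3686 exonic bases over which the files count Ubqln1, and 5.53% of all 50-base windows in those bases touch it. The files give 1 count per gene, so reads were not placed on exons here.

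Ubqln1 transcripts were lower in Ubqln1-/- cells in every condition, to between 0.369 and 0.414 of the WT level. Levels are given as RPKM, the usual reads per kilobase of exonic width scaled to the total counted reads, here after TMM scaling of library sizes. Resting WT libraries held 64.2, 64.1 and 62.3 RPKM of Ubqln1, and resting Ubqln1-/- libraries 25.2, 24.8 and 28.8. With anti-IgM the values were 86.8, 92.0 and 86.5 RPKM in WT cells and 30.2, 34.0 and 34.8 in Ubqln1-/- cells, and with LPS they were 80.2, 80.8 and 72.5 against 26.6, 29.4 and 30.1. No Ubqln1-/- library reached the lowest WT library of its own or any other condition. The log2 difference between Ubqln1-/- and WT cells was -1.27 at rest (SE 0.0728, adjusted p = 6.68e-08), -1.42 after anti-IgM (SE 0.0724, adjusted p = 1.10e-08) and -1.44 after LPS (SE 0.0728, adjusted p = 9.89e-09). These and all later adjusted p-values are from edgeR's quasi-likelihood test with Benjamini-Hochberg adjustment over the 14161 genes, and a gene was called when its adjusted p was under 0.05. Ubqln1 fell by more than the share of its windows that touch exon 2. The summed level of 3 plasma cell markers (Sdc1, Jchain, Tnfrsf17) was also lower in Ubqln1-/- libraries. At rest it was 168 to 192 CPM (counts scaled to library size), against 228 to 433 in resting WT libraries. Jchain made up most of this sum. Over all libraries Jchain held 73.7 to 390 CPM, Sdc1 8.61 to 71.2 and Tnfrsf17 at most 0.355. The part of the sum in the Ubqln1 values was not tested.

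None of the other 8 members was called between genotypes by edgeR, limma or DESeq2, and none had an unadjusted p under 0.05. Ubqln1 was thus 1 of 9 members called in each condition, where the share of all genes tested that was called was 0.0565% at rest, 0.0989% after anti-IgM and 0.0424% after LPS. Ubqln4, the ubiquilin with the second highest level in WT cells, held 36.5, 45.5 and 44.8 RPKM in resting WT libraries and 37.6, 41.4 and 43.2 in resting Ubqln1-/- libraries, and these ranges overlapped. Its log2 difference was -0.05 (95% interval -0.29 to 0.18) in resting cells, -0.02 (-0.25 to 0.21) with anti-IgM and 0.05 (-0.18 to 0.28) with LPS. Ubqln2, an X-linked gene at a lower level, stood at 17.7, 18.4 and 18.6 RPKM in resting WT cells and at 17.3, 17.8 and 18.6 in resting Ubqln1-/- cells, also overlapping. Its log2 difference was -0.03 (95% interval -0.13 to 0.07) in resting cells, 0.00 (-0.10 to 0.10) with anti-IgM and 0.06 (-0.04 to 0.16) with LPS. With LPS the Ubqln2 libraries of the genotypes did not overlap, at 16.6, 16.7 and 17.8 RPKM in Ubqln1-/- cells above 16.3, 16.3 and 16.4 in WT cells, though the difference was not called (unadjusted p = 0.203). Among the shuttle, BAG6 complex and co-chaperone genes the estimates farthest from 0 were 0.10 for Sgta with LPS (95% interval -0.02 to 0.22), -0.10 for Rad23b with anti-IgM (-0.26 to 0.06) and -0.09 for Bag6 in resting cells (-0.21 to 0.02). Ubqln1 was called in every fit with an adjusted p threshold of 0.05 and no other member was, although the number of all genes called moved more widely. With the replicate number as a block it was 94 with anti-IgM and 125 with LPS, against 14 and 6 without, and without WT LPS replicate 2 it was 37 with LPS.

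**Figure D1:**
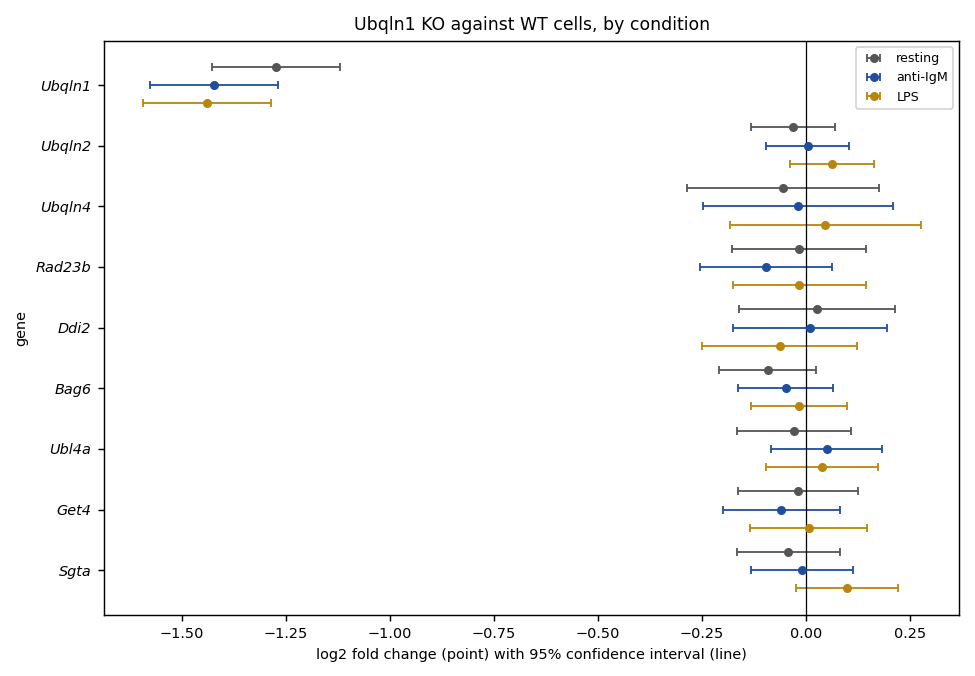
Log2 difference between Ubqln1-/- and WT cells (x axis) for the 9 members (y axis) in resting, anti-IgM and LPS conditions, as edgeR estimates with 95% intervals and 3 libraries per group. Ubqln1 lies between -1.44 and -1.27, and the other 8 members lie within 0.10 of 0 with intervals that reach across it.

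The question whether the remaining ubiquilins rise where Ubqln1 is lost was also put to their sum. Ubqln2 and Ubqln4 together made up 58.6 ± 3.49 RPKM (SD, n = 3) in resting Ubqln1-/- cells and 60.5 ± 5.50 in resting WT cells. With anti-IgM the sums were 94.8 ± 5.61 and 95.7 ± 9.59 RPKM, and with LPS 89.4 ± 5.08 and 86.4 ± 9.25. The differences were smaller than the spread between libraries, with two-sided exact permutation p-values of 0.6, 1.0 and 0.6, where 3 against 3 libraries can give no p under 0.1. Pairing libraries by replicate number gave exact sign-flip permutation p-values of 0.5, 1.0 and 0.5, with 0.25 as the smallest possible. The summed RPKM of all 3 ubiquilins was lower in Ubqln1-/- cells, at 84.9 ± 5.34 RPKM against 124 ± 5.02 in resting WT cells, 128 ± 8.09 against 184 ± 12.3 with anti-IgM and 118 ± 6.52 against 164 ± 12.6 with LPS. The Ubqln1-/- sums include 26.3, 33.0 and 28.7 RPKM of Ubqln1 transcripts from the gene without exon 2.

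**Figure D2:**
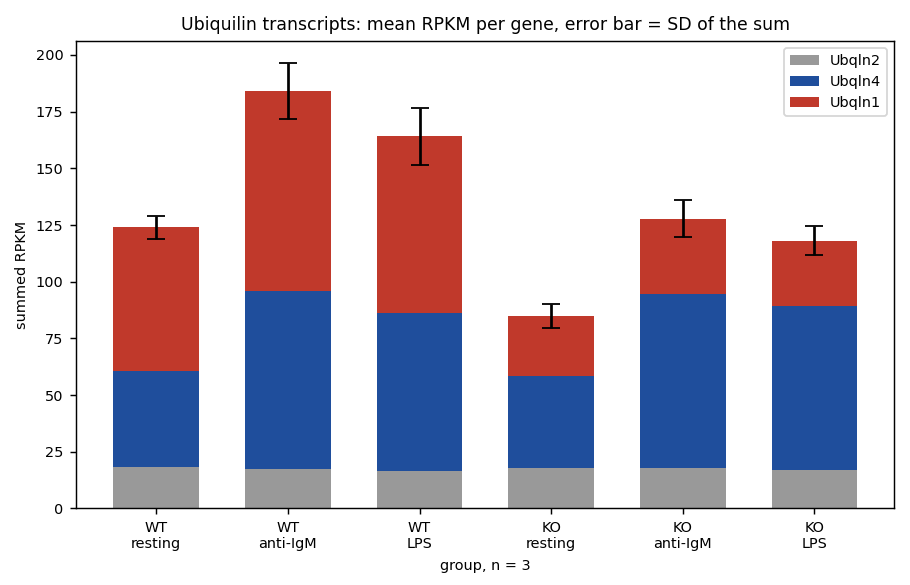
Mean RPKM of Ubqln2, Ubqln4 and Ubqln1, stacked from bottom to top (y axis, from 0) for each genotype and condition (x axis, KO for Ubqln1-/-), with the SD of the sum over 3 libraries as error bar. The upper layer, Ubqln1, is thinner in Ubqln1-/- cells, and the lower layers together differ by at most 3.02 RPKM between genotypes.

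The makeup of the pool differed between conditions. In WT cells Ubqln1 took 51.3 ± 2.58% of ubiquilin RPKM at rest, 48.1 ± 1.88% with anti-IgM and 47.5 ± 2.05% with LPS (SD, n = 3). The Ubqln4 share was 34.0% at rest, 42.3% with anti-IgM and 42.6% with LPS, and the Ubqln2 share was 14.7%, 9.59% and 9.98%. In Ubqln1-/- cells Ubqln4 was the main ubiquilin transcript, with 48.0% of the pool at rest, 60.3% with anti-IgM and 61.2% with LPS. That pool still counts the Ubqln1 transcripts without exon 2, at 30.9%, 25.8% and 24.3%. A share of RPKM depends on the widths used, and without division by width the Ubqln1 share in WT cells was 53.6%, 50.4% and 49.7%.

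Bag6 was the most abundant of the 9 transcripts in resting WT cells and Get4 the least. Resting WT cells held 86.5 ± 3.74 RPKM of Bag6, 63.5 ± 1.08 of Ubqln1, 45.8 ± 3.93 of Rad23b, 42.3 ± 5.04 of Ubqln4 and 38.8 ± 2.35 of Sgta (SD, n = 3). Below these came Ddi2 at 30.5 ± 2.86 RPKM, Ubl4a at 18.3 ± 0.903, Ubqln2 at 18.3 ± 0.483 and Get4 at 16.6 ± 0.384. In that order the ranges of Rad23b, Ubqln4 and Sgta overlapped from each to the next, as did those of Ubl4a and Ubqln2, and all other neighbours were apart. In WT cells with anti-IgM the upper ranks closed up, with Ubqln1 at 88.4 ± 3.13 RPKM, Bag6 at 85.3 ± 2.74, Rad23b at 79.9 ± 6.85 and Ubqln4 at 78.1 ± 9.41, each overlapping the next. Ubqln2 was then last at 17.6 ± 0.427 RPKM, below Get4 at 20.4 ± 0.463 without overlap. With LPS the WT order was Bag6, Ubqln1, Rad23b, Ubqln4, Sgta, Ddi2, Ubl4a, Get4 and Ubqln2, of which Ubqln1, Rad23b and Ubqln4, and then Sgta and Ddi2, overlapped with their neighbours. In Ubqln1-/- cells Ubqln1 stood sixth in every condition. BAG6 complex subunits thus differed in level by gene, with Bag6 above Ubl4a and Get4 in all 18 libraries.

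**Figure D3:**
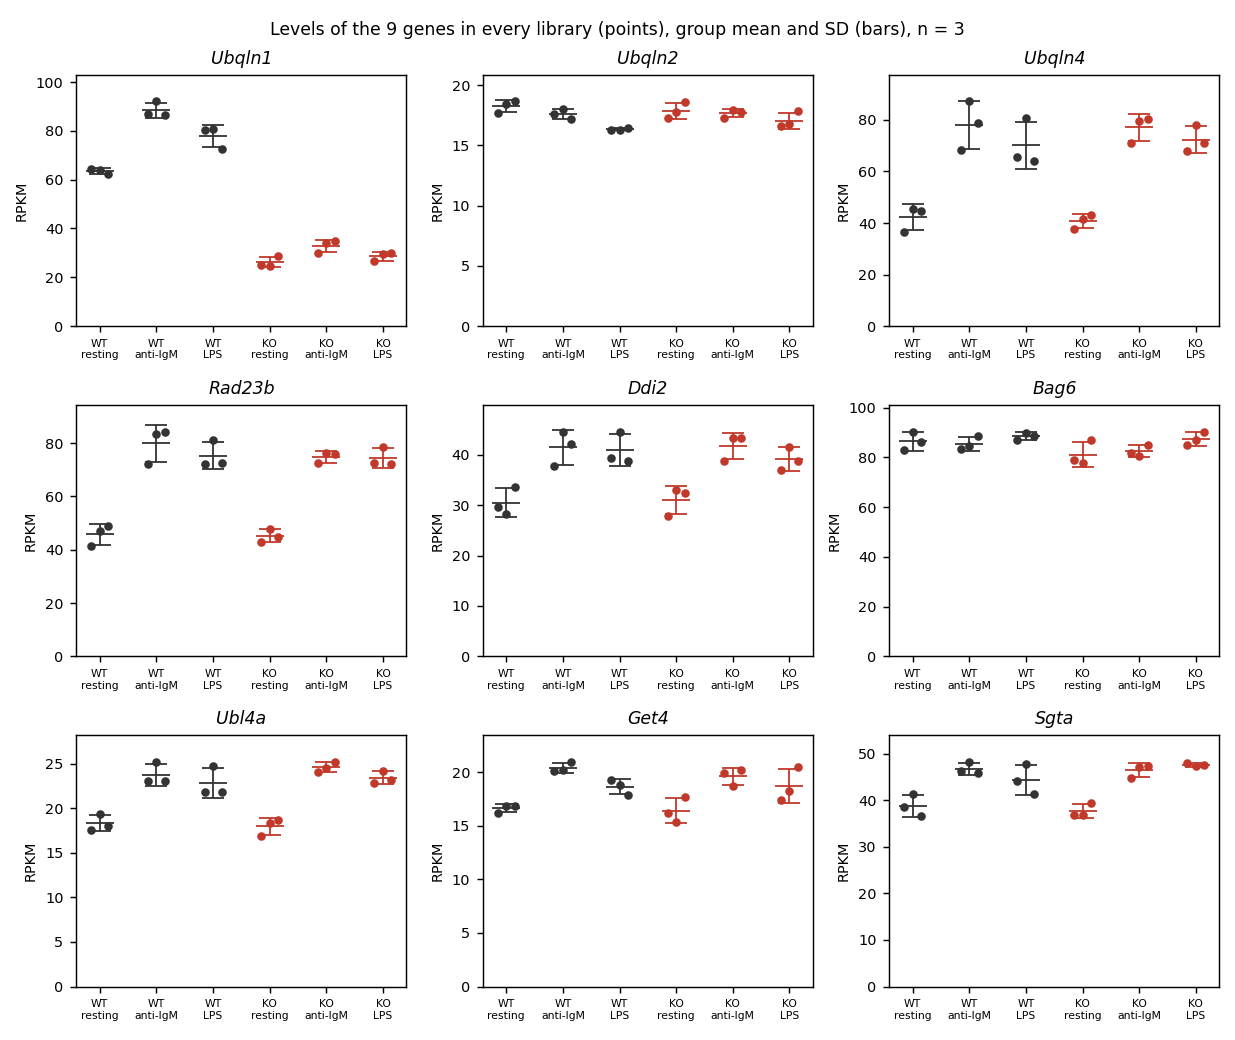
RPKM (y axis, from 0) of each of the 9 members in the 18 libraries, 1 panel per gene, with points for libraries and lines for the mean and SD of the 3 libraries of a genotype and condition (x axis, KO for Ubqln1-/-). Ubqln4 and Rad23b show the widest step from resting to stimulated cells, the Bag6 and Ubqln2 libraries with anti-IgM overlap the resting ones in both genotypes, and Ubqln1 is lower in Ubqln1-/- cells throughout.

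The libraries held from 15368941 to 41072854 counts, and the lowest count of any member in any library was 560, for Get4. Defining B-cell markers (Cd79a, Cd79b, Ms4a1, Cd22, Pax5) were present in all libraries, while Cd3e, Cd3g, Cd3d and the 3 NK cell markers were at or near 0. The 4 T cell markers summed to 0.991 to 22.6 CPM, highest with anti-IgM through Cd5, and the 3 erythroid markers to 0.249 to 2.26 CPM. All 18 libraries had Xist and almost no counts of Y-linked genes. These 5 B-cell markers summed to 5013 to 6192 CPM in resting WT libraries, 1622 to 2166 with anti-IgM and 3116 to 4191 with LPS, and 5 myeloid markers (Lyz2, Csf1r, Itgam, Adgre1, Csf3r) to 21.8 to 48.9 CPM in resting and 11.0 to 17.7 CPM in stimulated WT libraries. Both lists moved with the stimuli, and their part in the stimulation results was not tested. In bulk RNA, fewer cells of a type and less RNA per cell cannot be told apart.

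B-cell receptor ligation raised 7 of the 9 members in both genotypes and left Bag6 and Ubqln2 uncalled. Over all genes, 32.4% were called higher and 32.2% lower with anti-IgM in WT cells, and 32.9% and 32.4% in Ubqln1-/- cells. The median log2 fold change of the 9 members was 0.38 in WT cells and 0.33 in Ubqln1-/- cells, beside -0.01 and -0.02 over all genes tested. Regardless of sign, the median change was 0.47 and 0.46 over all genes, larger than the 0.38 and 0.33 of the members. Both stimuli are compared with the same resting libraries, so the anti-IgM and LPS results are not independent.

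The ubiquilins responded unequally. Ubqln4 went from 36.5, 45.5 and 44.8 RPKM in resting WT libraries to 68.4, 87.2 and 78.8 with anti-IgM, and from 37.6, 41.4 and 43.2 to 71.0, 79.7 and 80.5 in Ubqln1-/- libraries. All stimulated libraries lay above all resting ones, and the log2 fold change was 0.88 (SE 0.109, adjusted p = 2.16e-06) in WT and 0.92 (SE 0.109, adjusted p = 1.43e-06) in Ubqln1-/- cells. Ubqln1 rose by 0.48 (SE 0.0711, adjusted p = 1.71e-05) in WT cells, 1.39-fold, and by 0.33 (SE 0.0720, adjusted p = 0.000731) in Ubqln1-/- cells, again without overlap between the groups. Ubqln2 held 17.6, 18.0 and 17.2 RPKM with anti-IgM in WT cells, within or just under its resting range, and its log2 fold change of -0.05 (95% interval -0.15 to 0.05) was not called.

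Rad23b, whose product is a shuttle factor and also a partner of the DNA damage sensor XPC, rose from 41.4, 46.9 and 49.0 RPKM to 72.0, 83.5 and 84.3 with anti-IgM in WT cells, and from 43.1, 47.8 and 44.9 to 72.4, 76.2 and 75.8 in Ubqln1-/- cells. The groups did not overlap, with log2 fold changes of 0.80 (SE 0.0762, adjusted p = 1.04e-07) and 0.72 (SE 0.0760, adjusted p = 3.50e-07). Ddi2 rose from 29.6, 28.2 and 33.7 RPKM to 37.7, 44.6 and 42.2 in WT cells without overlap, a log2 fold change of 0.45 (SE 0.0884, adjusted p = 0.000299), and by 0.43 in Ubqln1-/- cells. Its count is not its own throughout, since it shares exon bases on the same strand with Rsc1a1, an intronless gene within the locus. Over the 9553 exonic bases of Ddi2 in GENCODE, 17.9% of 50-base windows occur also in Rsc1a1, but the files count Ddi2 over 3539 bases, of which the shared part is not known. Rsc1a1 held 62.1% to 66.0% of the Ddi2 count in every library, close to the 60.9% that its width is of the width of Ddi2, and its log2 fold change in WT cells was 0.46, so that reads of the pair cannot be told apart.

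Within the BAG6 complex the scaffold and its partners parted. Bag6, the scaffold that holds hydrophobic clients, stood at 82.8, 90.3 and 86.2 RPKM in resting WT libraries and at 83.2, 84.4 and 88.4 with anti-IgM, overlapping, with a log2 fold change of -0.02 (95% interval -0.13 to 0.10). Ubl4a, its subunit with a UBL domain, rose from 17.6, 19.3 and 18.0 RPKM to 23.1, 25.2 and 23.0, all above the resting libraries, a log2 fold change of 0.38 (SE 0.0644, adjusted p = 7.27e-05). Get4, the subunit that links the complex to the tail-anchored pathway, rose from 16.2, 16.9 and 16.8 RPKM to 20.1, 20.2 and 21.0, also without overlap, by 0.30 (SE 0.0673, adjusted p = 0.00101). The changes in Ubqln1-/- cells were 0.02 for Bag6 (95% interval -0.09 to 0.14), 0.45 for Ubl4a (adjusted p = 9.69e-06) and 0.26 for Get4 (adjusted p = 0.00302). Sgta, which hands hydrophobic clients to the complex, rose from 38.6, 41.3 and 36.6 RPKM to 46.2, 48.2 and 45.9 in WT cells, by 0.27 (SE 0.0586, adjusted p = 0.000702), and by 0.30 (adjusted p = 0.000239) in Ubqln1-/- cells. Of the 50-base windows in GENCODE transcripts, which can be longer than the widths counted in the files, 6.29% of those of Ubl4a occur also in Slc10a3 and 7.15% of those of Get4 in Gm43110, while Ubqln1, Ubqln2, Ubqln4, Rad23b, Bag6 and Sgta share none with another annotated gene.

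**Figure D4:**
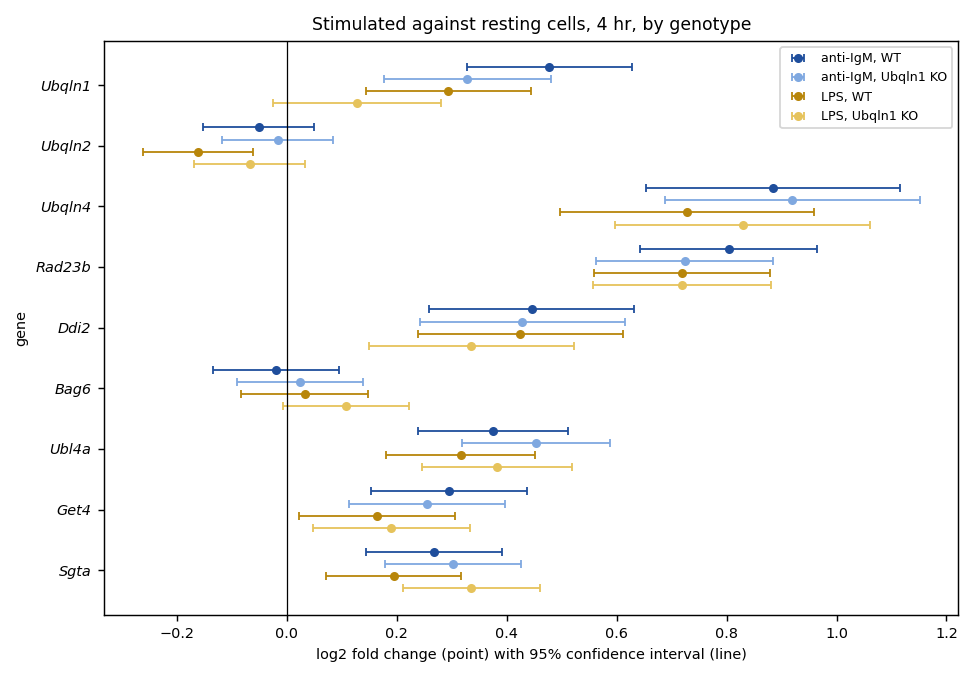
Log2 fold change against resting cells (x axis) of the 9 members (y axis) with anti-IgM and with LPS in WT and Ubqln1-/- cells, as edgeR estimates with 95% intervals from 3 libraries per group. Ubqln4 and Rad23b lie highest, between 0.72 and 0.92, and Bag6 and Ubqln2 lie nearest to 0 or below it.

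With LPS 7 members rose and Ubqln2 fell in WT cells, and 6 rose in Ubqln1-/- cells. Among all genes 31.2% were called higher and 30.1% lower in WT cells, and 30.6% and 30.2% in Ubqln1-/- cells. The members' median log2 fold change was 0.29 in WT and 0.34 in Ubqln1-/- cells, beside -0.01 and -0.02 over all genes tested. Regardless of sign, the median change was 0.42 and 0.43 over all genes, again larger than the 0.29 and 0.34 of the members. Rad23b and Ubqln4 again moved most. Rad23b reached 72.3, 81.2 and 72.5 RPKM in WT libraries, a log2 fold change of 0.72 (SE 0.0760, adjusted p = 5.77e-07), and 0.72 (SE 0.0761, adjusted p = 5.96e-07) in Ubqln1-/- cells. Ubqln4 reached 65.5, 80.8 and 64.0 RPKM in WT libraries, a log2 fold change of 0.73 (SE 0.109, adjusted p = 2.31e-05), and 0.83 (SE 0.109, adjusted p = 6.30e-06) in Ubqln1-/- cells. For both genes every LPS library lay above every resting library.

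Ubqln1 with LPS reached 80.2, 80.8 and 72.5 RPKM in WT cells, above the resting libraries, a log2 fold change of 0.29 (SE 0.0710, adjusted p = 0.00185). In Ubqln1-/- cells its remaining transcripts, at 26.6, 29.4 and 30.1 RPKM against 25.2, 24.8 and 28.8 at rest, overlapped and gave 0.13 (95% interval -0.02 to 0.28, adjusted p = 0.136). That call hung on a library, since without resting Ubqln1-/- replicate 3 the value was 0.20 (adjusted p = 0.0312). Ubqln2 fell in WT cells from 17.7, 18.4 and 18.6 RPKM to 16.3, 16.3 and 16.4, by 0.16 on the log2 scale (SE 0.0475, adjusted p = 0.00740), with the 3 LPS libraries below all resting ones. In Ubqln1-/- cells the Ubqln2 libraries overlapped, at 16.6, 16.7 and 17.8 RPKM against 17.3, 17.8 and 18.6, and the change of -0.07 (adjusted p = 0.235) was not called. Ubqln2 was not called in WT cells when the fit held only resting and LPS libraries of that genotype.

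The LPS changes of Ddi2 and the BAG6 axis were smaller than those of Rad23b and Ubqln4. Ddi2 rose by 0.42 (SE 0.0882, adjusted p = 0.000514) in WT and 0.34 (adjusted p = 0.00351) in Ubqln1-/- cells, and Ubl4a by 0.32 (SE 0.0640, adjusted p = 0.000418) and 0.38 (adjusted p = 7.80e-05). Sgta stood at 44.1, 47.8 and 41.4 RPKM in WT and at 48.0, 47.3 and 47.5 in Ubqln1-/- LPS libraries, all above their resting libraries, with rises of 0.19 (SE 0.0584, adjusted p = 0.00845) and 0.34 (SE 0.0587, adjusted p = 0.000112). The WT call of Sgta was lost without LPS replicate 2 (adjusted p = 0.0607). Get4 rose by 0.16 (SE 0.0669, adjusted p = 0.0425) in WT cells, from 16.2, 16.9 and 16.8 to 19.3, 18.8 and 17.9 RPKM, and by 0.19 (adjusted p = 0.0222) in Ubqln1-/- cells, where 17.4, 18.2 and 20.5 RPKM overlapped the resting 16.2, 15.4 and 17.7. The call for Get4 in WT cells was lost without any 1 of LPS replicates 1 and 2 and resting replicates 1 and 3 (adjusted p = 0.0674 to 0.127), and in Ubqln1-/- cells without LPS replicate 3 or resting replicate 1 or 2 (0.0551 to 0.142). Bag6 was at 86.8, 89.8 and 88.7 RPKM in WT LPS libraries, a change of 0.03 (95% interval -0.08 to 0.15), and at 84.9, 87.1 and 90.2 in Ubqln1-/- LPS libraries, a change of 0.11 (-0.01 to 0.22, adjusted p = 0.0982). The Bag6 change in Ubqln1-/- cells was called with the replicate block (adjusted p = 0.0370) and without resting Ubqln1-/- replicate 3 (0.16, adjusted p = 0.0232).

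The stimuli were also compared with each other. In WT cells 0 of 9 members were called, where 17.4% of all genes were higher with LPS than with anti-IgM and 15% lower, and in Ubqln1-/- cells only Ubqln1 was called, where 16.8% were higher and 14.5% lower. Ubqln1 was lower with LPS by 0.20 (SE 0.0720, adjusted p = 0.0435) in Ubqln1-/- cells, with each LPS library below each anti-IgM library, and the call was lost without any 1 of LPS replicates 1 and 2 and anti-IgM replicates 2 and 3 of that genotype (adjusted p = 0.0658 to 0.188). In WT cells the Ubqln1 value was -0.18 (SE 0.0707, adjusted p = 0.0569), and that of Ubqln2 -0.11 (SE 0.0473, adjusted p = 0.0882), with each LPS library below each anti-IgM library for both genes. These were the 2 members with an unadjusted p under 0.05 in WT cells. Of the 9, limma called 0 and DESeq2 called 1, Ubqln1, while with the replicate block both genes were called (adjusted p = 0.0250 for Ubqln1 and 0.0451 for Ubqln2).

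No member's response was shown to depend on genotype. The interaction of genotype with stimulus, the difference between the responses in Ubqln1-/- and WT cells, was called for 0% of all genes with anti-IgM and 0% with LPS. At an unadjusted p under 0.05 there were 140 and 220 genes, none of them a member, and limma and DESeq2 also called 0 members. Without WT LPS replicate 2 the LPS interaction was called for 10 genes, none of them a member. For Ubqln1 the interaction was -0.15 (95% interval -0.36 to 0.07) with anti-IgM and -0.17 (-0.38 to 0.05) with LPS. Sgta had 0.14 (-0.03 to 0.32) with LPS and Ubqln2 0.09 (-0.05 to 0.24). Across the other members the widest interval, that of Ubqln4 with LPS, ran from -0.22 to 0.43.

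The promoters of the members that moved most and of Bag6, which was not called against resting cells, are shown for comparison, with matches in capitals. Each is the first 250 bases of a RefSeq promoter entry of the gene in GRCm38.p6. The Ubqln4 and Bag6 windows run past the RefSeq starts of these genes, at 88553677 and 35135156, and GC boxes of both lie beyond them. Ubqln4 lies at chr3:88553466-88553715 on the plus strand, Rad23b at chr4:55349792-55350041 on the plus strand and Bag6 at chr17:35134963-35135212 on the plus strand. The motifs searched on both strands were the GC box GGGCGG, the E-box CACGTG, the CRE core TGACGT, the AP-1 site TGACTCA and the ETS site CCGGAAG, and in these 3 windows every match is a GC box.
Ubqln4 promoter: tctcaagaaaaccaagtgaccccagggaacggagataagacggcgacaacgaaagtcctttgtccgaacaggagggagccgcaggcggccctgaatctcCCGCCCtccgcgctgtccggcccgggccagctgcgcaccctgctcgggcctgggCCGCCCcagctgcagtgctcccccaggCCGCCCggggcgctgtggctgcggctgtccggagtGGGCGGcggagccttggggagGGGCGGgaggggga
Rad23b promoter: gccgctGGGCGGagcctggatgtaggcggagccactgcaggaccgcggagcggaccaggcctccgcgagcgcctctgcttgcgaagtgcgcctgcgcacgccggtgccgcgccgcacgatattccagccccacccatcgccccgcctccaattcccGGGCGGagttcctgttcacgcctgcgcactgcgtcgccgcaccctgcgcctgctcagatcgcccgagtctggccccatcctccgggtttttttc
Bag6 promoter: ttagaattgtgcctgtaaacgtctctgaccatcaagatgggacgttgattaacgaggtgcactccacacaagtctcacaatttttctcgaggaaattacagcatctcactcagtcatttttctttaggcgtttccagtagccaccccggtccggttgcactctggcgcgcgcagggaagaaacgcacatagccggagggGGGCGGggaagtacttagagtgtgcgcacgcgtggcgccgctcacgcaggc
The GC box matched 5 times in the Ubqln4 window, 2 times in that of Rad23b and 1 time in that of Bag6. Of the 8 members with a promoter in the RefSeq table, 7 held a GC box, as did 32.7% of all 32851 promoters of that length. An E-box was present for 2 members (6.02% of all promoters), a CRE core for 1 (6.47%), an AP-1 site for 0 (4.46%) and an ETS site for 2 (6.91%), counting a member when any of its entries matched. CACGTG reads the same on both strands and was counted once per site, the CRE core can overlap its own reverse strand as TGACGTCA, and none of these motifs contains another. These counts describe the letters in the windows and were not set against the response.

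The genes whose pattern over the 6 groups was most like that of a member, by the root mean square difference of centred log2 CPM among 9102 genes with at least 10 CPM, were Lig3, Memo1 and Prpf19 for Ubqln4, and Rnf146, Lsm8 and Cdyl for Ubqln2. For Rad23b the nearest named gene was Bzw1, after a pair of genes without a symbol in the reference. Bag6 was closest to Rbm42, Zbtb6 and Snx3, Ubl4a to Ift20, Setdb1 and Gclm, Get4 to Tmem259, Ppm1a and Ociad1, and Sgta to Fbxo34, Usp5 and Txn1. Ddi2 was closest to Rsc1a1, with which it shares exon bases, then to Thumpd3 and Srpr. For Ubqln1, over the 3 WT groups only, the closest were Xrcc6, Glmn and Arfip2.

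Around the members, genes at the proteasome end of the pathway also rose. All 7 of the 7 genes for docking and ubiquitin receptor subunits were called higher with anti-IgM and with LPS in both genotypes. The share of all genes called higher was 32.4% with anti-IgM and 31.2% with LPS in WT cells. In Ubqln1-/- cells it was 32.9% and 30.6%. The medians of the 7 genes in WT cells were 0.54 and 0.49, beside -0.01 and -0.01 over all genes tested. Regardless of sign, the median change over all genes was 0.47 and 0.42. Usp14, a deubiquitinase that binds the proteasome, rose by 0.93 and 0.89, Uchl5 by 0.79 and 0.63, Psmd1 by 0.78 and 0.70, and Psmd2, a docking site for UBL domains, by 0.54 and 0.49. Nub1, which also encodes a protein with UBL and UBA domains, fell by 0.18 with anti-IgM and 0.17 with LPS. The Nub1 calls were lost without anti-IgM replicate 1 or resting replicate 2 or 3 (adjusted p = 0.0561 to 0.112) and without LPS replicate 1 or resting replicate 2 or 3 (0.0895 to 0.147). Ubqln5, Ubqlnl and Ddi1 had 0 counts in all libraries.

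Among 6 partners of BAG6 and the tail-anchored pathway 3 rose with anti-IgM and 0 fell in WT cells, and 4 rose and 1 fell with LPS. For these lists the shares over all genes in WT cells were those given above, 32.4% higher and 32.2% lower with anti-IgM and 31.2% and 30.1% with LPS. Rnf126, the ubiquitin ligase recruited by BAG6, rose by 0.83 and 0.76, and Get3, the ATPase that takes tail-anchored clients onward, by 0.75 and 0.30. Get1, an insertase subunit, had 0.20 with anti-IgM, not called, and 0.35 with LPS, and Rnf115 rose by 0.19 and 0.15. With LPS the call for Get1 was lost without LPS replicate 2 or resting replicate 1 (adjusted p = 0.0522 to 0.0893) and that for Rnf115 without LPS replicate 2 or resting replicate 1 or 2 (0.0530 to 0.0888), while with anti-IgM Get1 was called without anti-IgM replicate 1 (0.0470). The gene that fell with LPS was Camlg, by 0.18, named after its values were seen. Of 10 genes for the VCP segregase and its partners in endoplasmic reticulum-associated degradation, 7 rose and 1 fell with either stimulus in WT cells, while in Ubqln1-/- cells 4 rose with anti-IgM and 6 with LPS and 1 fell with each. For Ubqln1-/- cells the shares over all genes were 32.9% higher and 32.4% lower with anti-IgM, and 30.6% and 30.2% with LPS. In WT cells Herpud1, which binds ubiquilins at the endoplasmic reticulum, rose by 0.31 with anti-IgM and 0.95 with LPS. Vcp rose by 0.51 and 0.49, Ubxn4 by 0.49 and 0.46 and Nploc4 by 0.37 and 0.39. The gene that fell was Ube4b, by 0.35 with either stimulus, also named after its values were seen.

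Nfe2l1, which encodes the substrate of DDI2, rose by 0.90 with anti-IgM and 0.93 with LPS in WT cells. Ngly1, the glycanase that acts on the same substrate, fell by 0.80 and 0.58. Nfe2l2 rose by 0.45 with anti-IgM and fell by 0.18 with LPS, a call lost without LPS replicate 1 or 2 or resting replicate 2 or 3 (adjusted p = 0.0653 to 0.177). Of 6 autophagy receptors for ubiquitin, 2 rose and 3 fell with anti-IgM, and 3 rose and 3 fell with LPS, where 32.4% and 32.2% of all genes did so with anti-IgM and 31.2% and 30.1% with LPS. Optn rose by 0.57 and 1.14, Calcoco1 fell by 0.62 and 1.02, Nbr1 fell by 0.78 and 0.68, and Sqstm1 had 0.15, not called, and 0.42. Rps27a, a ubiquitin precursor gene named here after its values were seen, rose by 1.43 and 1.11 in WT cells and by 1.43 and 1.34 in Ubqln1-/- cells. Ubb, another precursor gene, was not called with anti-IgM in WT cells, but was called lower with the replicate block (-0.16, adjusted p = 0.0219) and without resting replicate 1 (-0.24, adjusted p = 0.0344). No gene of these lists was called between genotypes or in an interaction.

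**Figure D5:**
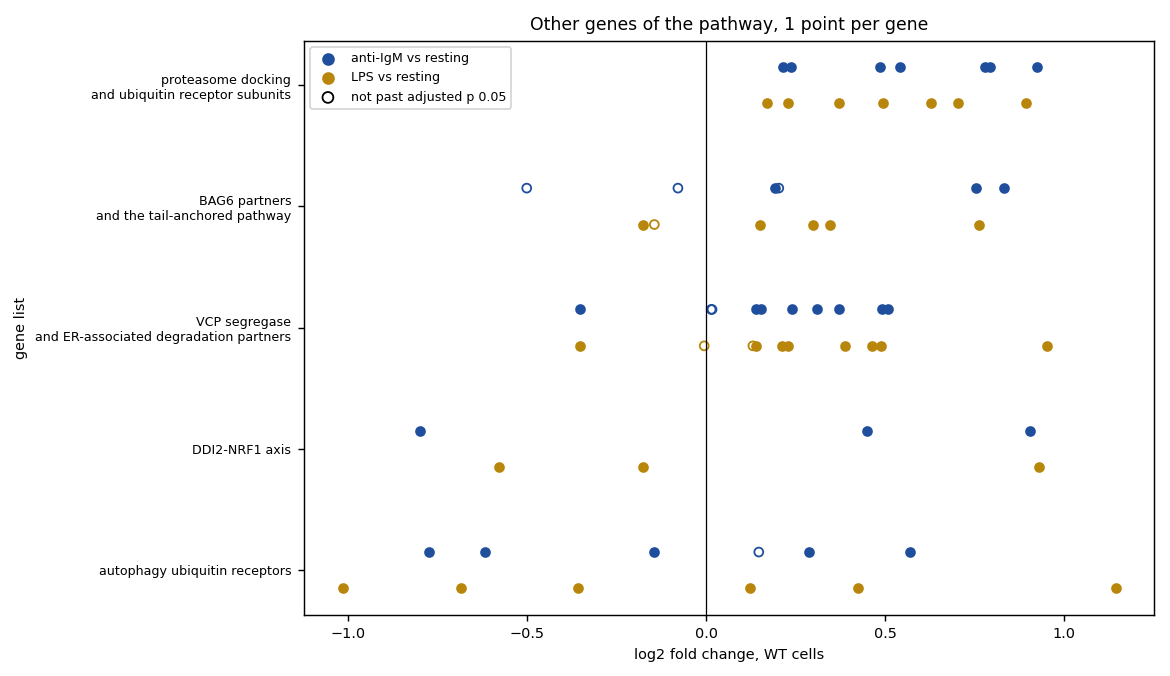
Log2 fold change against resting WT cells (x axis) of each tested gene in 5 pathway lists (y axis), with anti-IgM in blue and LPS in gold, and open circles for genes with an adjusted p of 0.05 or more in edgeR with 3 libraries per group. All proteasome docking genes lie right of 0 with both stimuli, while the autophagy receptors spread from -1.02 to 1.14.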

How the data were processed

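The authors aligned single-end 50-base reads from an unstranded kit to GRCm38 with GSNAP and deposited, per library, a read count over the exons of each Entrez gene, the exonic width and RPKM. The counting program and annotation release are not given in the sources used here, and the submitters' processing notes also name R 3.2.2 and limma. The RPKM deposited by the authors served only as an alternative. Symbols came from RefSeq GRCm38.p6, which named 89.1% of the 28096 genes. The sample of each group whose label gives no replicate number was taken as 1, beside those numbered 2 and 3.

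Counts were fitted with edgeR 4.0.16 in R 4.3.3 (TMM factors 0.958 to 1.038, its expression filter, quasi-likelihood test, all 18 samples, 1 term per group, no block), with limma 3.58.1 and DESeq2 1.42.0 as alternatives beside RLE or no scaling factors, other filters, a replicate block, only the groups compared, stricter thresholds and each library left out. The scripts were tested on simulated counts. Member RPKM was the count over width and TMM-scaled library size. No 2 replicates agreed within sampling noise. The lowest member count, 560, and a biological coefficient of variation of 10.1% set the precision.

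Same-numbered samples deviated together in the stimulation contrasts (correlations 0.228 to 0.516) and between genotypes with anti-IgM and LPS (0.205 to 0.388), where the numbers were taken to pair the samples, but not throughout in resting cells (0.0826 to 0.298). The main fit had no block and so did not use this pairing, which entered only the replicate block and the sign-flip tests. The members and lists were chosen with earlier results of these data known. Some genes of the marker and pathway lists are not reported here. Named beyond the members were up to 4 genes per list with the largest WT stimulation change at 10 CPM or more, and for each member the 3 genes nearest in pattern. Exons came from GENCODE on GRCm38 and promoters from RefSeq.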

Additional observations from a re-analysis of the deposited data

How the results depend on the processing

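At thresholds of a log2 fold change over 2 and an adjusted p under 0.001, 0 of 9 members were called in every comparison that had calls. Of all 14161 genes these thresholds called 532 and 516 with anti-IgM against resting in WT and Ubqln1-/- cells, 255 and 247 with LPS, and 1 between genotypes in each condition. In WT cells 5 members were called with LPS against resting when only the groups compared were fitted, in place of 8, with Get4, Sgta and Ubqln2 lost. For LPS against anti-IgM in WT cells, where 0 were called, 1 was called by DESeq2, with RLE factors and with at least 10 counts in every sample (Ubqln1 each time), 3 without TMM factors (Ubqln1, Ubqln2, Get4) and 2 with the replicate block. Without division by width the Ubqln1 share of the pool in WT cells was 50.4% with anti-IgM and 49.7% with LPS. Leaving out 1 library gave 6 to 8 called members for LPS against resting in WT cells, 5 to 8 in Ubqln1-/- cells and 0 to 1 for LPS against anti-IgM in Ubqln1-/- cells, and the other counts stayed at 7, 1 or 0. The Ubqln1 share then ranged from 49.8% to 52.1%, 47.0% to 48.8% and 46.4% to 48.5%, and the Ubqln2 and Ubqln4 sum differed between genotypes by -5.10 to -0.0425, -5.83 to 3.76 and 0.0231 to 8.35 RPKM, at rest, with anti-IgM and with LPS.

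Get4 with LPS in WT cells changed its call in 11 of 15 alternatives (adjusted p 0.0203 to 0.275). Apart from Ubqln1 and Ubqln2 for LPS against anti-IgM in WT cells, the block changed only the call of Bag6, called with LPS in Ubqln1-/- cells. Between genotypes it called 49 genes in resting cells, where the pairing did not hold throughout, against 8. No called member changed direction in any alternative run, nor did the named list genes chosen by rule, for which alternatives were run in the WT stimulation contrasts alone. With RLE or no scaling factors the median log2 fold change of all genes lay between -0.09 and 0.03. The causes of these changes were not tested.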
